A study of Mus musculus with 2 samples.

Results

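The data concern 9 transcription factors that build or mark myeloid identity, read in microglia and in blood-derived monocytes and macrophages of the infarcted mouse brain. The genes are Sall1, Mef2c, Maf, Spi1, Irf8, Runx1, Runx3, Cebpb and Bhlhe40. They were taken by symbol from the 31253 features of the count files. The rule itself uses no measured value, but the list was chosen with earlier results of these data known. All 9 had at least 30 unique molecular identifiers (UMIs, counted RNA molecules) in the higher of the 2 cell classes in both libraries, the number asked of every gene compared here.

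Infarcted brain was taken 3 days after transient middle cerebral artery occlusion (tMCAO), a surgical model of ischaemic stroke, and digested to single cells with collagenase, and RNA was read with the BD Rhapsody system. There was 1 library labelled cKO, from mice with a conditional knockout of Hilpda, and 1 library labelled flox, from the controls, which the design text calls WT. Hilpda encodes a lipid droplet protein that restrains the breakdown of stored fat. The sources used here do not give the Cre driver, the deleted exons, or the number, age and sex of the animals. With 1 library per group no test between groups could be made, and genotype and library preparation cannot be told apart. Every interval below is a 95% interval of counting error alone, and UMIs of cells from the same library are not independent replicates.

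The cKO-labelled library held 7382 barcodes and 70665440 UMIs, and the flox-labelled library held 8593 barcodes and 67864602 UMIs. After filtering, 6984 and 8065 cells were kept, with a median of 8741 UMIs per cell in cKO and 6997 in flox. A marker gate that used none of the 9 genes gave 1136 cKO-labelled and 1919 flox-labelled microglia, and 1876 cKO-labelled and 2060 flox-labelled blood-derived cells. It left 28.8% and 28.1% of the kept cells without a class. The median microglial cell held 179 UMIs of the 13 microglial markers per 10000 UMIs in cKO and 207 in flox, against 22.9 and 26.7 in blood-derived cells. The 14 blood-derived markers stood at 4.55 and 3.89 per 10000 in microglia, against 125 and 116 in blood-derived cells. Hilpda itself was higher in cKO-labelled microglia (190 CPM, against 85.8 CPM in flox) and lower in cKO-labelled blood-derived cells (260 CPM, against 447 CPM in flox), CPM being UMIs per 1000000 of the class sum. The microglial value goes against the label. The sources used here do not say whether the counted end of the transcript lies in the deleted part, so Hilpda does not check the genotype. Across the libraries 56 barcodes were shared, and without them no ratio of the 9 factors moved beyond its counting interval. Class names below stand for cells gated by their markers, and cKO and flox for the libraries so labelled.

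Microglia arise from yolk sac precursors and live in the brain from embryonic life, whereas monocytes and the macrophages they become enter it from blood after injury. Both lineages depend on PU.1, the product of Spi1, which opens enhancers together with partners such as IRF8, RUNX and C/EBP factors. Microglial identity is further held by the zinc finger factor SALL1 and by the MADS-box factor MEF2C. Runx genes read the same core DNA motif through a shared Runt domain, and each is transcribed from a distal and a proximal promoter.

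The promoters of the RUNX family are shown because Runx3 was far lower in microglia than in blood-derived cells while Runx1 was present in both. Windows of 300 bases, from 250 before to 50 after the annotated start, were taken from RefSeq on GRCm38.p6. The table held 13 windows for 6 of the 9 genes, and none for Maf, Spi1 and Bhlhe40. The windows below are chr16:92826025-92826324 on the minus strand for Runx1, chr4:135120395-135120694 on the plus strand for Runx3, and chr17:44814578-44814877 on the minus strand for Runx2, their paralog. Capitals mark the RUNX core ACCACA, the reverse complement of TGTGGT, on either strand.
Runx1: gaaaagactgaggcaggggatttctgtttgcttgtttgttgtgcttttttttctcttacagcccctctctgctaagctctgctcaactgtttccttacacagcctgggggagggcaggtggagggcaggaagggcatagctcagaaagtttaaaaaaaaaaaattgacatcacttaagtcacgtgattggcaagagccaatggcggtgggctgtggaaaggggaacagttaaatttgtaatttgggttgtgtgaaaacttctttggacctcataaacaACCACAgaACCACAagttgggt
Runx3: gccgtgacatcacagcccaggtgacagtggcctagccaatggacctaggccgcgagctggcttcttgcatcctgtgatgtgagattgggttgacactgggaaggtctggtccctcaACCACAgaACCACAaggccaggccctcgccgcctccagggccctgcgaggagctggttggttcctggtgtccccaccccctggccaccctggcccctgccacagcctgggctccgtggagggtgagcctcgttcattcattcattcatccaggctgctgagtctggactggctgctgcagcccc
Runx2: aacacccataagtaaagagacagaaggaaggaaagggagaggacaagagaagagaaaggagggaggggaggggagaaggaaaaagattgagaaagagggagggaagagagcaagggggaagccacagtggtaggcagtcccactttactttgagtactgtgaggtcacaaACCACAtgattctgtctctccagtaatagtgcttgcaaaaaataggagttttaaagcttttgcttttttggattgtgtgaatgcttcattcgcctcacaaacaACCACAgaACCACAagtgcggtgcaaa

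All 3 windows carried the same 14 bases, ACCACAgaACCACA, in the same orientation relative to the gene. They began 28 bases after the start in Runx1 and 23 after it in Runx2, and ended 120 bases before the start in Runx3. A single TGTGGT on either strand was present in 16.8% of the 32851 promoter windows of the genome. Such a core followed by another after any 2 bases, on the same strand, was present in 7 windows (0.0213%), which included Runx1, Runx2, Runx3 and the gene model Gm16225, whose window overlaps that of Runx3 on the other strand. Runx1 and Runx3 each have 2 windows in the table, and the pair was in the printed window alone. This is a match of letters and not a measured binding site.

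Of the 9 factors, 2 were higher in microglia than in blood-derived cells, 3 were lower, and 4 did not pass the size rule. The size rule called a gene that was 2-fold or more apart in the same direction in both libraries, with at least 30 UMIs in the higher class and an interval that excluded equality. Among all 10561 genes compared, 12.9% were higher in microglia by the same rule and 6.81% were lower. The factors past the rule in microglia were Sall1 and Mef2c, and those past it in blood-derived cells were Runx3, Cebpb and Bhlhe40. The remaining factors, Spi1, Irf8, Runx1 and Maf, lay within 2-fold in both libraries.

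**Figure D1:**
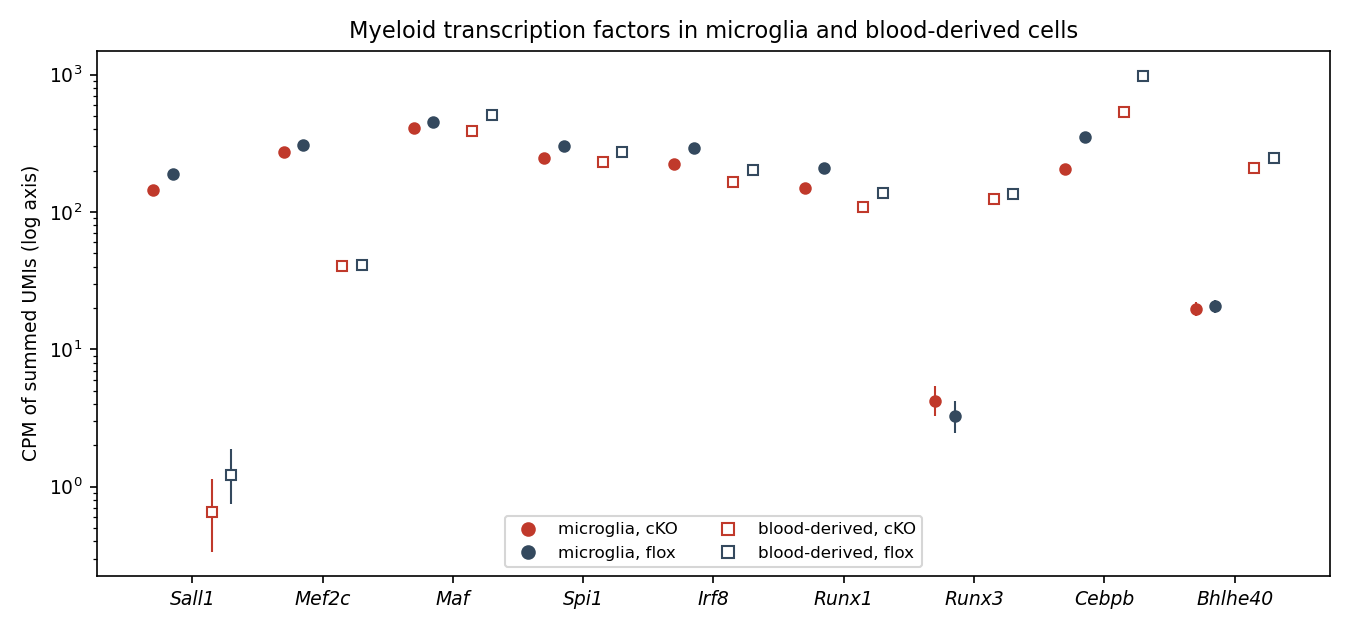
Level of each factor as CPM of summed UMIs (log axis) in microglia (filled circles) and blood-derived cells (open squares) of the cKO-labelled (red) and flox-labelled (blue) library, with exact Poisson 95% intervals. Sall1 and Mef2c sit higher in microglia, Runx3, Cebpb and Bhlhe40 sit lower, and the other factors lie close together.

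Positions are on GRCm38, the build called mm10 in the submitters' processing notes. Sall1 (ENSMUSG00000031665, chr8:89027235-89044162, minus strand), a transcriptional repressor of the spalt family that defines microglia among brain macrophages, showed the widest gap. It had 2171 UMIs (146 CPM) in cKO-labelled and 3432 UMIs (189 CPM) in flox-labelled microglia, against 12 UMIs (0.650 CPM) and 20 UMIs (1.22 CPM) in blood-derived cells. The ratio was 224-fold in cKO (log2 7.81, 7.001 to 8.76) and 155-fold in flox (log2 7.27, 6.64 to 7.99). Sall1 ranked at the 99.8th percentile of genes compared in cKO and at the 99.7th in flox. At least 1 Sall1 UMI was seen in 68.2% of cKO-labelled and 70.1% of flox-labelled microglia, against 0.640% and 0.922% of blood-derived cells. With every cell thinned to 1000 UMIs, which left out 20 and 40 shallower microglia and 6 and 10 blood-derived cells, 17.4% of cKO-labelled and 21.1% of flox-labelled microglia held a Sall1 UMI, against 0.0535% and 0.195% of blood-derived cells. Endothelial cells, which are not known for Sall1, stood at 0% of 446 cells (exact upper limit 0.824%) and 0.199% of 503 cells, with median depths of 6299 and 3948 UMIs before thinning. The blood-derived share was therefore no higher than that background, at median depths of 9170 and 7301 UMIs. No blood-derived cell held more than 1 Sall1 UMI in cKO or more than 2 in flox.

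Mef2c (ENSMUSG00000005583, chr13:83504034-83667080, plus strand), whose protein restrains microglial inflammatory output and also acts in muscle, vessels and neurons, differed less. It stood at 274 CPM in cKO-labelled and 307 CPM in flox-labelled microglia, against 40.3 and 40.8 CPM in blood-derived cells. The ratio was 6.80-fold in cKO (log2 2.77, 2.65 to 2.88) and 7.52-fold in flox (log2 2.91, 2.79 to 3.03). Blood-derived cells held 745 Mef2c UMIs in cKO and 669 in flox, in 27.3% and 24.3% of the cells. After thinning to 1000 UMIs those shares were 4.28% and 4.78%. Oligodendrocytes, the class with the lowest Mef2c CPM, had 0.909% and 1.26% (median depths 6819 and 5259 UMIs). Endothelial cells, a class known to use Mef2c, had 8.97% and 9.34%. Choroid plexus epithelium had 2.11% in cKO and 4.84% of 62 cells in flox, and astrocytes had 1.49% and 8.33% of 36 cells. In flox the blood-derived share was thus above that of oligodendrocytes but not above those of choroid plexus epithelium and astrocytes.

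The factors that both lineages are known to need differed little between them. Spi1 (ENSMUSG00000002111, chr2:91082390-91115756, plus strand) stood at 249 and 304 CPM in cKO-labelled and flox-labelled microglia, against 232 and 275 CPM in blood-derived cells. Irf8 (ENSMUSG00000041515, chr8:120736358-120756694, plus strand), a partner of PU.1 needed for microglia and for several dendritic cell types, stood at 222 and 294 CPM in microglia, against 165 and 202 CPM in blood-derived cells. Runx1 (ENSMUSG00000022952, chr16:92601466-92826149, minus strand), which acts from the emergence of blood cells onward, stood at 150 and 210 CPM in microglia, against 109 and 138 CPM in blood-derived cells. The log2 ratios were 0.10 and 0.15 for Spi1, 0.43 and 0.54 for Irf8, and 0.46 and 0.61 for Runx1 in cKO and flox. For all 3 genes the counting intervals lay above 0 in both libraries, but Spi1 sat near the median of all genes compared (0.07 in cKO and 0.10 in flox). Under TMM, a scaling that trims extreme genes, that median was -0.02 and -0.03.

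Maf (ENSMUSG00000055435, chr8:115682942-115707794, minus strand) encodes c-MAF, a bZIP factor of tissue-resident macrophages. It had 410 CPM in cKO-labelled and 451 CPM in flox-labelled microglia, against 386 and 506 CPM in blood-derived cells. The log2 ratio was 0.09 (0.04 to 0.14) in cKO and -0.17 (-0.21 to -0.12) in flox, so the direction was not the same in the 2 libraries. It also turned within a library: in flox it was 0.12 (0.07 to 0.17) once cycling cells were left out. In cKO it was -0.04 with classes from clusters, with an interval (-0.08 to 0.01) that included 0.

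Runx3 (ENSMUSG00000070691, chr4:135120652-135177990, plus strand), known for its roles in T cells, dendritic cells and TGF-beta responses, was the mirror of Sall1. Its level in microglia was 4.23 CPM in cKO and 3.24 CPM in flox, from 63 and 59 UMIs, against 125 and 135 CPM in blood-derived cells, from 2308 and 2217 UMIs. It was 29.6-fold lower in microglia in cKO (log2 -4.89, -5.27 to -4.52) and 41.7-fold lower in flox (log2 -5.38, -5.78 to -5.01). Among the genes compared Runx3 was at the 0.748th percentile in cKO and the 0.464th in flox. After thinning, 0.358% of cKO-labelled and 0.319% of flox-labelled microglia held a Runx3 UMI, against 12.8% of blood-derived cells in both libraries. Endothelial cells had 0.224% and 0.199%, with intervals that overlapped those of microglia, so this depth could not tell microglia from that background. Thinned to 2000 UMIs, 1.30% of cKO-labelled and 0.830% of flox-labelled microglia held a Runx3 UMI, against 0.249% and 0.239% of endothelial cells. Whether Runx3 in microglia stood above background was not settled. Runx1 and Runx3 thus differed in which class held them: Runx1 was in both classes and Runx3 mainly in blood-derived cells. Both genes carry the promoter pair printed above, but which of their promoters was in use was not measured.

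Bhlhe40 (ENSMUSG00000030103, chr6:108660629-108666925, plus strand), a basic helix-loop-helix repressor known to shape cytokine output and proliferation of macrophages, had 19.7 and 20.5 CPM in cKO-labelled and flox-labelled microglia, against 209 and 247 CPM in blood-derived cells. It was 10.6-fold lower in microglia in cKO (log2 -3.40, -3.58 to -3.23) and 12.1-fold lower in flox (log2 -3.59, -3.75 to -3.44). Cebpb, a bZIP factor of monocyte survival and of inflammatory and hypoxic responses, was the most even of the factors past the rule. It had 206 and 349 CPM in microglia, against 534 and 985 CPM in blood-derived cells. Its log2 ratio was -1.38 (-1.43 to -1.32) in cKO and -1.50 (-1.54 to -1.45) in flox. Cebpb was plain in both classes, with at least 1 UMI in 74.4% of cKO-labelled and 78.7% of flox-labelled microglia, against 92.9% and 94.6% of blood-derived cells. Cebpb (ENSMUSG00000056501, chr2:167688915-167690418, plus strand) lies within Tmem189 on the other strand, which had 11158 UMIs in these classes beside 35430 of Cebpb. The sources used here do not give the strand setting of the counter, so reads of the 2 genes could be shared.

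**Figure D2:**
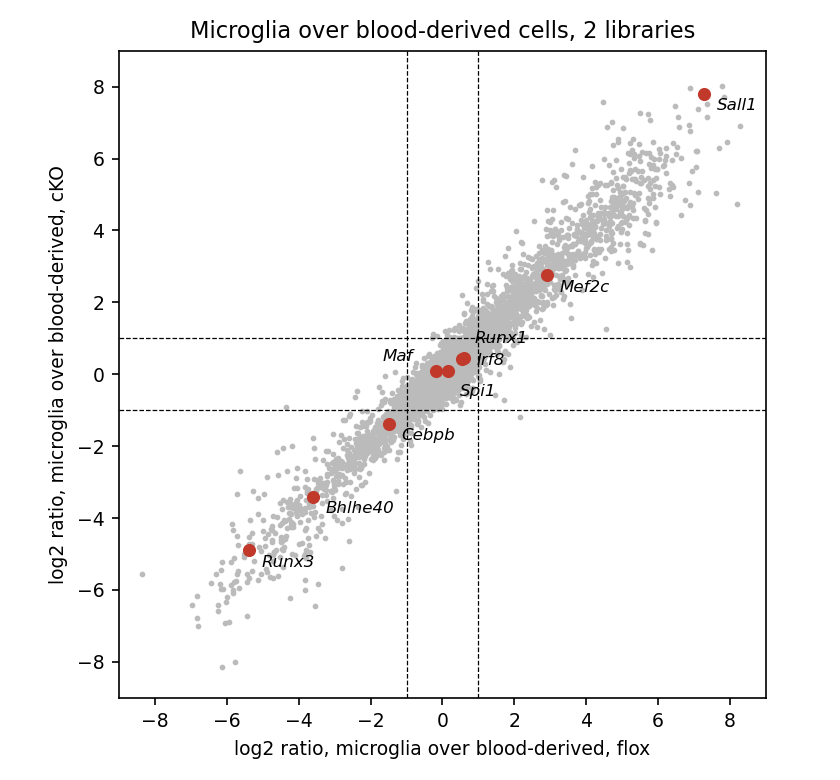
Log2 ratio of microglia over blood-derived cells in the flox-labelled library (x axis) and the cKO-labelled library (y axis) for every gene compared that had UMIs in all 4 sums (grey) and for the 9 factors (red). Dashed lines mark 2-fold, and Sall1, at 7.27 in flox and 7.81 in cKO, lies near the upper end while Runx3, at -5.38 and -4.89, lies near the lower end.

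Relatives and partners of the 9 factors were read next, from a list of 20 genes of which 13 had enough UMIs. Of these, 3 were higher in microglia (23.1%) and 1 was lower (7.69%), against 12.9% and 6.81% of all genes. The median log2 ratio of the 13 was 0.10 in cKO and 0.32 in flox. Sall3, a spalt paralog, followed Sall1 with 85.6 CPM in cKO-labelled and 99.9 CPM in flox-labelled microglia, against 0.704 and 0.854 CPM in blood-derived cells (log2 6.93 and 6.87). Sall2 was also higher, at log2 3.30 and 2.93, from 119 and 135 UMIs in microglia. Sall4 had 0 UMIs in either class. Ddit3, the stress-induced C/EBP relative CHOP, was higher in microglia at log2 1.35 and 1.11.

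Runx2, best known in bone, followed Runx3 and not Runx1. It had 12 and 15 UMIs in cKO-labelled and flox-labelled microglia, against 440 and 295 UMIs in blood-derived cells (log2 -4.89 and -4.45). Cbfb, the non-DNA-binding partner of all RUNX proteins, was within 2-fold at log2 0.42 and 0.35. Bhlhe41, the paralog of Bhlhe40, had the opposite lean, at 1.10 in cKO and 0.88 in flox, and did not pass the rule in both libraries. Among MEF2 genes, Mef2a was at -0.16 and -0.13 and Mef2d at -0.58 and -0.39, neither near the 2.77 and 2.91 of Mef2c. Among C/EBP genes, Cebpa was at -0.15 and -0.16, Cebpg at -0.11 and -0.06, and Cebpd at 0.72 and 0.86. Irf4, a relative of Irf8, was sparse, with 26 and 47 UMIs in microglia (0.10 and 0.32). Spic, which marks iron-recycling macrophages, had 2 and 3 UMIs in microglia, against 60 and 28 UMIs in blood-derived cells, and was too sparse in flox to be compared.

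In a wider list of 77 other myeloid transcription factors, 71 could be compared. Of these, 5 were higher in microglia (7.04%) and 11 were lower (15.5%), against 12.9% and 6.81% of all genes. The median log2 ratio of the list was -0.11 in cKO and -0.02 in flox, against 0.07 and 0.10 over all genes. The highest were Sall3, Zeb1 (3.24 and 3.82), a repressor known for epithelial-mesenchymal change, and Tal1 (1.99 and 1.94), a regulator of blood formation. The lowest were Ahr (-4.04 and -5.36), the aryl hydrocarbon receptor, and the lipid-sensing nuclear receptors Nr1h3 (-3.97 and -3.58) and Pparg (-3.87 and -3.67). Ahr rested on 7 and 4 UMIs in microglia, against 143 and 148 UMIs in blood-derived cells. Of 10 comparable receptor genes known as targets of PU.1 or RUNX1, Csf1r, the receptor that microglia need to survive, was higher in microglia (1.68 and 1.79). The scavenger receptor Cd36 was lower (-1.65 and -1.62), and the other 8 did not pass the rule. The receptor shares, 10% higher and 10% lower, lay near those of all genes. The median of the 10 was 0.03 in cKO and -0.00 in flox.

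Across the 11 gated classes that held 50 cells or more per library, each factor had its own order. Sall1 was highest in microglia in both libraries. Blood-derived cells had the lowest value among classes with a UMI in both libraries, but this lowest rank was not resolved. In cKO the next lowest was choroid plexus epithelium, with 1 UMI. Border-associated macrophages had 3 UMIs in cKO and 5 in flox, with intervals that overlapped those of blood-derived cells. Neutrophils had 0 Sall1 UMIs in cKO, with an exact upper limit of 11.3 CPM. In flox they had 7 UMIs in 4 cells (28.5 CPM, 11.5 to 58.8), with up to 4 UMIs in 1 cell. Next to microglia came oligodendrocytes (93.6 CPM in cKO and 93.8 in flox), neuroblasts and neurons (70.9 and 66.0) and astrocytes (57.6 and 64.1), whose intervals overlapped in flox. In oligodendrocytes the UMIs of Sall1 and Spi1 were 192 and 32 in cKO and 189 and 53 in flox, whereas in microglia they were 2171 and 3706 in cKO and 3432 and 5537 in flox. Spi1 UMIs were thus fewer than Sall1 UMIs in oligodendrocytes and more than Sall1 UMIs in microglia.

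Maf was highest in border-associated macrophages, the resident cells of the meninges and vessel walls, at 1822 CPM in cKO and 2253 CPM in flox. Spi1 reached 364 and 395 CPM there, and 363 and 640 CPM in neutrophils. Irf8 was highest in dendritic cells, at 268 and 416 CPM. Runx1 lay within 150 to 192 CPM in microglia, border-associated macrophages and dendritic cells in cKO, and within 184 to 210 CPM in those classes in flox. Irf8 and Runx1 were both low in endothelial cells, at 6.22 and 13.6 CPM for Irf8 and at 3.11 and 6.79 CPM for Runx1.

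Runx3 and Bhlhe40 were both highest in dendritic cells. Runx3 had 324 CPM there in cKO and 309 CPM in flox, above the 125 and 135 CPM of blood-derived cells. Border-associated macrophages held 23.8 and 13.3 CPM of Runx3, between the levels of microglia (4.23 and 3.24 CPM) and of blood-derived cells. Bhlhe40 had 746 and 817 CPM in dendritic cells, 394 and 322 CPM in neutrophils, and 232 and 247 CPM in endothelial cells. Bhlhe40 was low in both resident macrophage classes, with 31.0 and 15.1 CPM in border-associated macrophages beside 19.7 and 20.5 CPM in microglia. Cebpb was highest in neutrophils, at 1946 CPM in cKO and 2446 CPM in flox. Mef2c was highest in pericytes and smooth muscle, at 303 and 325 CPM, with intervals that overlapped those of microglia, and border-associated macrophages held 176 and 177 CPM.

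**Figure D3:**
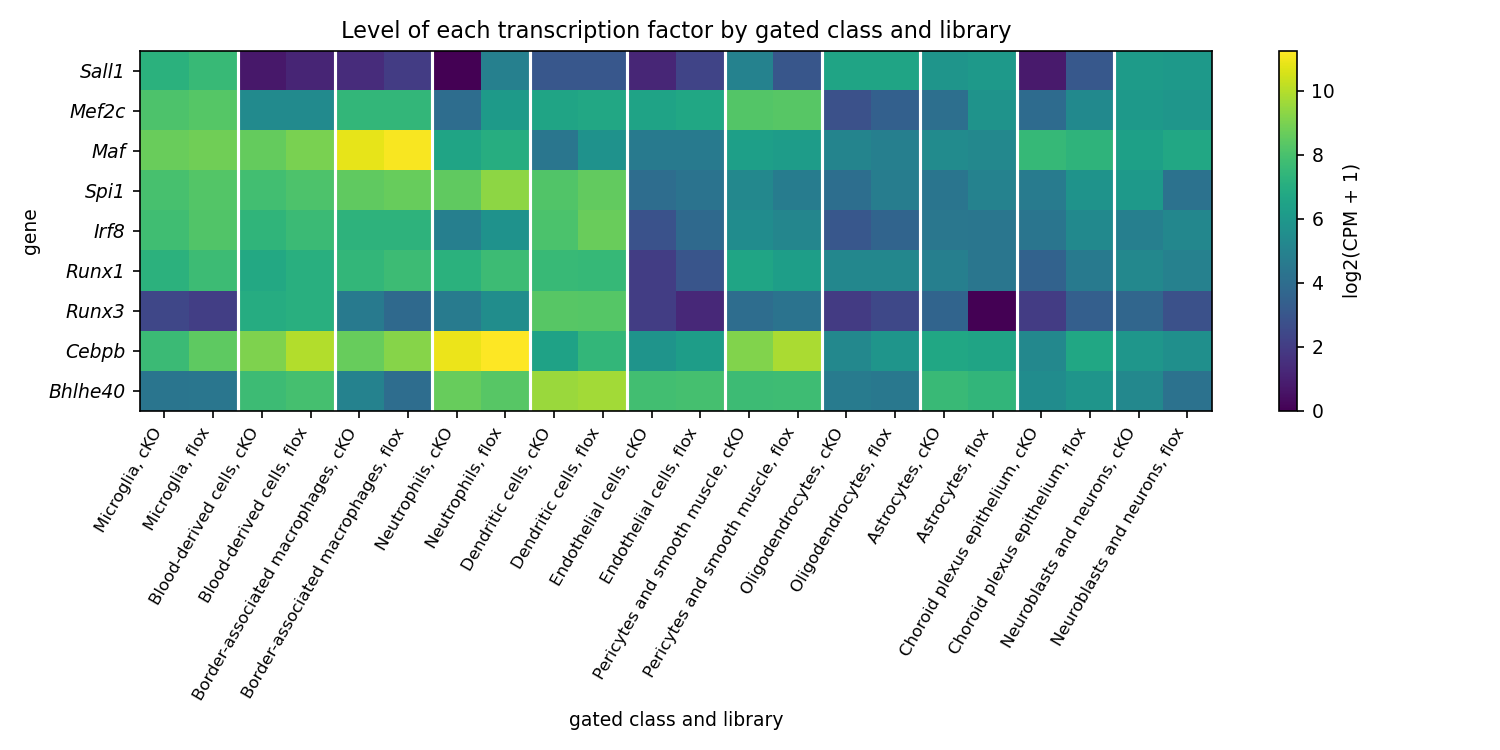
Level of each factor (rows) as log2(CPM + 1) in 11 gated classes of the cKO-labelled and flox-labelled library (columns, cKO left of flox). Spi1, Irf8 and Runx1 are bright in the 5 myeloid classes with the exception of Irf8 in neutrophils, Maf peaks in border-associated macrophages, and Runx3 is bright in dendritic and blood-derived cells.

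Over these 22 points, 11 classes in each of 2 libraries, the levels of Spi1, Irf8 and Runx1 moved together, with Pearson's r of 0.86 between Spi1 and Runx1, 0.82 between Spi1 and Irf8, and 0.81 between Irf8 and Runx1. Sall1 had an r of -0.44 with Bhlhe40 and -0.41 with Runx3. The points share libraries, and classes differ in depth, so these values are descriptions. The gene most like each factor by the same measure was Masp1 for Sall1 (0.91), Gem for Mef2c (0.89), Clta for Maf (0.91), Arhgap30 for Spi1 (0.98), Il21r for Irf8 (0.96), Taok3 for Runx1 (0.95), Gpr132 for Runx3 (0.93), Junb for Cebpb (0.86) and S100a11 for Bhlhe40 (0.94). The next for Spi1 were Cd53 and Ncf1 (both 0.97), and the next for Irf8 were Cd86 and Irf5 (both 0.95).

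Within microglia, the factors were compared along a score of resting minus activated marker genes that held none of them. Cells were split at the median score of their library into those scored towards resting, led by P2ry12 and Tmem119, and those scored towards activated, led by Spp1 and Apoe. Such a split is a range and not a cell type, and 28 cKO-labelled and 38 flox-labelled microglia lay within 0.05 of it. Cells scored towards resting were shallower, with medians of 7881 UMIs in cKO and 4960 in flox, against 18297 and 12616 UMIs in those scored towards activated. All resting markers of the score were also markers of the microglial gate. The microglial gate markers stood at 239 and 260 per 10000 UMIs towards resting in cKO and flox, against 148 and 166 towards activated. The blood-derived markers stood at 3.98 and 2.43 per 10000 UMIs towards resting, against 5.21 and 6.57 towards activated. The part of these marker differences in what follows was not tested.

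Sall1 was the only member of the 9 past the rule in both libraries, with higher levels towards resting, against 3.76% of 9629 genes higher towards resting and 3.04% higher towards activated. It had 285 CPM in cKO and 360 CPM in flox towards resting, against 75.9 and 109 CPM towards activated (log2 1.91, 1.78 to 2.04, and 1.72, 1.63 to 1.82). Towards activated, Sall1 thus still stood far above the 0.650 and 1.22 CPM of blood-derived cells. Mef2c leaned the same way by 0.85 in cKO and 0.82 in flox, at 390 and 436 CPM towards resting, against 216 and 247 CPM towards activated. Spi1 (0.50 and 0.52), Irf8 (0.41 and 0.55), Maf (0.33 and 0.48) and Runx1 (0.48 and 0.35) leaned towards resting by less. Cebpb was even, at -0.01 and -0.10. Bhlhe40 leaned towards activated, by -0.35 (-0.73 to 0.02) in cKO and -1.11 (-1.52 to -0.72) in flox. With a split at a value common to both libraries it was at -0.85 (-1.35 to -0.38) and -1.06 (-1.42 to -0.71).

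Runx3 pointed opposite ways in the 2 libraries. In cKO-labelled microglia it had 35 UMIs in 21 cells towards resting, against 28 UMIs in 20 cells towards activated (log2 1.32, 0.56 to 2.09). In flox-labelled microglia it had 10 UMIs in 10 cells towards resting, against 49 UMIs in 34 cells towards activated (log2 -1.19, -2.33 to -0.19). A single cKO-labelled cell held up to 6 of these UMIs. With the common split the ratio was 1.47 in cKO and -0.65 in flox, where the interval (-1.55 to 0.19) included 0.

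Within blood-derived cells, the score ran from monocyte markers such as Ly6c2 and Ccr2 to markers of lipid-laden macrophages such as Gpnmb and Fabp5. Mef2c was past the rule towards monocytes in both libraries, against 2.75% of 9160 genes higher towards monocytes and 1.03% higher towards lipid-laden. It had 60.2 CPM in cKO and 59.9 CPM in flox towards monocytes, against 28.6 and 29.4 CPM towards lipid-laden (log2 1.07 and 1.03). With the common split the ratio was 1.04 in cKO and 0.93 in flox, so Mef2c no longer passed the rule in both. Runx3 leaned the same way by 0.77 and 0.81, at 169 and 185 CPM towards monocytes, against 99.1 and 106 CPM towards lipid-laden. Runx1 (0.51 and 0.45) and Spi1 (0.35 and 0.35) leaned towards monocytes by less, and Bhlhe40 did so by 0.68 in cKO and 0.24 in flox. Irf8 leaned towards lipid-laden (-0.24 and -0.13), unlike its lean within microglia. The monocyte side was again the shallower, with medians of 6610 and 5555 UMIs, against 12316 and 9652 UMIs. All monocyte markers of the score were also markers of the blood-derived gate. The blood-derived gate markers stood at 152 and 136 per 10000 UMIs towards monocytes in cKO and flox, against 111 and 102 towards lipid-laden. The microglial gate markers stood at 17.85 and 23.33, against 26.76 and 28.95. The part of these marker differences in the leans above was not tested.

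**Figure D4:**
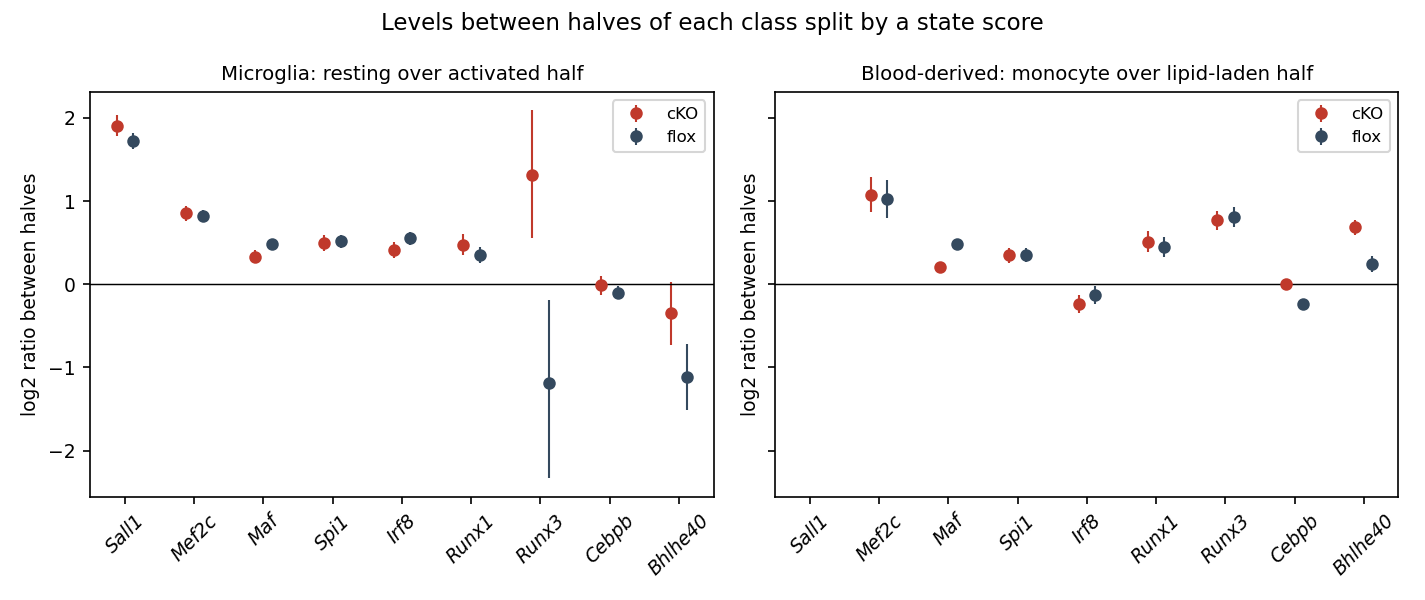
Log2 ratio of each factor between cells above and below the median state score, within microglia (left, resting over activated) and within blood-derived cells (right, monocyte over lipid-laden), for the cKO-labelled (red) and flox-labelled (blue) library with 95% counting intervals. Sall1 in microglia, at 1.91 and 1.72, and Mef2c in blood-derived cells, at 1.07 and 1.03, stand highest among values that hold in both libraries, and Sall1 is not drawn for blood-derived cells for want of UMIs.

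Between the libraries, none of the 9 factors was 2-fold apart in either class. In microglia 0.403% of 10670 genes were higher in cKO by the size rule and 5.78% were lower. In blood-derived cells 0.443% of 10155 genes were higher and 5.46% were lower. The largest difference among the factors was in Cebpb, with 206 CPM in cKO-labelled microglia, against 349 CPM in flox-labelled microglia (log2 -0.76, -0.82 to -0.70). In blood-derived cells Cebpb was at 534 CPM in cKO, against 985 CPM in flox (log2 -0.88, -0.92 to -0.85). The median over all genes compared was -0.04 in microglia and -0.00 in blood-derived cells.

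Among the shared factors, Runx1 was at log2 -0.49 in microglia and -0.34 in blood-derived cells, Irf8 at -0.40 and -0.29, Spi1 at -0.29 and -0.24, and Maf at -0.14 and -0.39. Bhlhe40 was at -0.06 (-0.28 to 0.17) in microglia and -0.25 (-0.31 to -0.18) in blood-derived cells. Runx3 was at -0.11 in blood-derived cells, where it was abundant, and at 0.38 (-0.15 to 0.92) in microglia, where it was not. Mef2c was at -0.16 in microglia and -0.02 (-0.17 to 0.14) in blood-derived cells. Sall1 was at -0.37 (-0.45 to -0.30) in microglia, and its 12 and 20 UMIs in blood-derived cells were too few to compare.

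The libraries also differed in how many microglia were scored towards resting, and the part of this in the Sall1 difference was not tested. With the score split at a value common to both libraries, 38.9% of cKO-labelled and 56.5% of flox-labelled microglia were scored towards resting. Towards resting, Sall1 had 339 CPM in cKO and 331 CPM in flox (log2 0.03, -0.07 to 0.13). Towards activated it had 86.3 CPM in cKO and 98.4 CPM in flox (log2 -0.19, -0.32 to -0.06). Mef2c was likewise at 0.02 towards resting and -0.06 towards activated. Cebpb kept its difference on both sides, at -0.66 and -0.81, as did Runx1 at -0.36 and -0.46 and Irf8 at -0.38 and -0.29. Spi1 was at -0.13 towards resting and -0.25 towards activated, Maf at -0.03 (-0.11 to 0.05) and -0.10, and Bhlhe40 at -0.01 and -0.22. Runx3 was at 1.78 towards resting, from 29 UMIs in cKO and 17 in flox, and at -0.34 towards activated.

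**Figure D5:**
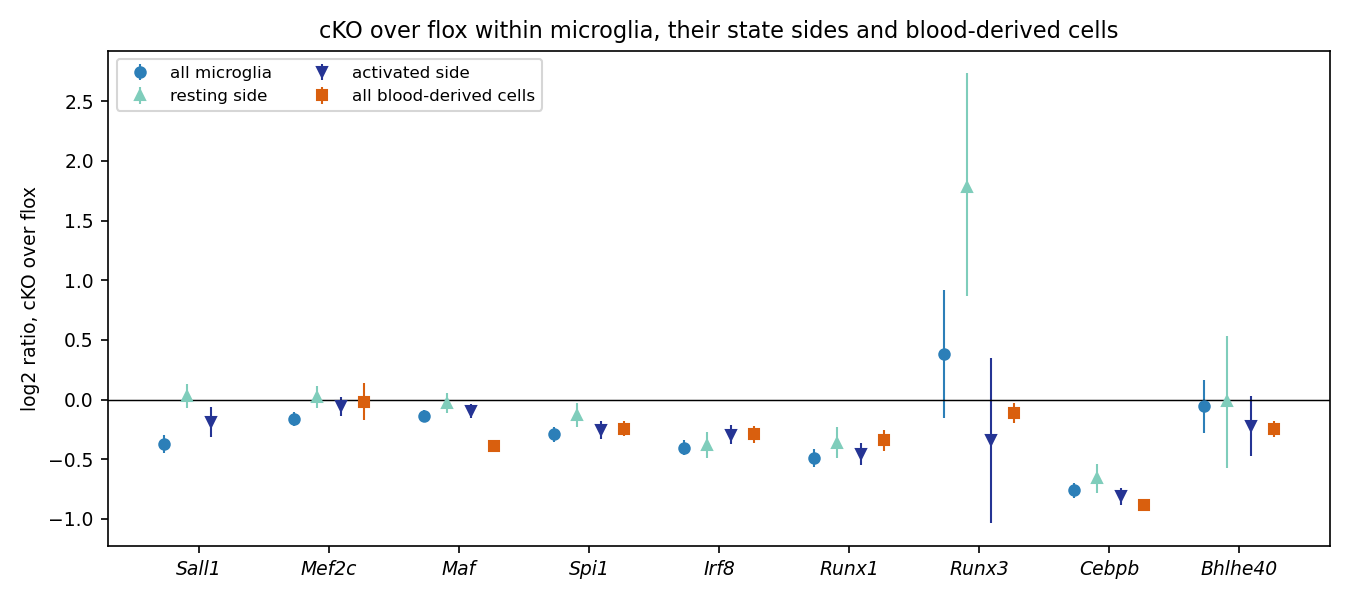
Log2 ratio of the cKO-labelled over the flox-labelled library for each factor in all microglia, in microglia on the resting and the activated side of a common score value, and in all blood-derived cells, with 95% counting intervals. Sall1 and Mef2c sit at 0.03 and 0.02 on the resting side, while Cebpb sits between -0.66 and -0.88 in every set of cells.

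Genes with GC-rich 3′ ends were lower in cKO in both classes. Where the last 500 nt of the transcript had 60% GC or more, the median log2 ratio was -1.27 in microglia and -1.06 in blood-derived cells, and at 55 to 60% GC it was -0.50 and -0.43. Spi1, with 64% GC, lay in the highest of these bins and differed by less than its median. Cebpb had 53.2% GC, in a bin (50 to 55%) with medians of -0.01 and 0.02, where 9.57% of genes in microglia and 9.30% in blood-derived cells were lower in cKO by the size rule. The part of GC content in these ratios was not tested. The other members had 30.4 to 49.2% GC.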

How the data were processed

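Single-cell libraries of infarcted mouse brain, 1 labelled cKO and 1 labelled flox, were read. The deposited files hold raw counts: whole UMI numbers for every gene in every barcode, not normalized. The submitters' processing notes name CASAVA 1.8, STARsolo, Seurat and mm10. The sources used here do not give the counter's settings, its strand mode or its cell caller.

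From these counts, cells with at least 500 UMIs, 200 genes and at most 25% mitochondrial UMIs were kept, and Scrublet (scanpy 1.11.5) marked 142 cKO (1.99%) and 210 flox (2.54%) cells as doublets, which were left out. Each cell was scored on 16 marker panels of 4 to 14 genes, as the mean z-score of log counts per 10000. The best class needed a margin of 0.2 over the next and a score of 0.1 (microglia, blood-derived), 1.5 (border-associated macrophages) or 1 (others). These limits were set after the score distributions were seen. Within 0.05 of the margin, on either side, lay 240 cells led by the microglial panel and 811 led by the blood-derived panel. Of the gated microglia 93.8%, and of the gated blood-derived cells 96.0%, fell into Leiden clusters of the same name made without the 9 genes. The reverse was looser, since the gate left out many cells of these clusters. The largest microglial cluster held 693 cKO and 856 flox cells, with 1134 gated as microglia. The largest blood-derived cluster held 919 cKO and 853 flox cells, with 829 gated as blood-derived.

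UMIs were summed per class and library and given as CPM of the sum. Ratios have exact conditional 95% intervals, levels exact Poisson and shares exact Clopper-Pearson intervals (scipy 1.17.1). No p-value was computed, since each group is 1 library. The state score is the mean z-score of resting minus activated, or monocyte minus lipid-laden, markers. Calculations were tested on simulated data. Alternatives were the clusters, the margin, doublets, the mitochondrial limit, cell weight, TMM scaling (edgeR 4.0.16, R 4.3.3), thinning, cycling cells, and the fold and UMI limits. Leaving out shared barcodes, and cKO over flox within state sides, were added after seeing the data. GC content was that of the last 500 nt of the GRCm38 transcripts, known for 10460 of 10670 genes compared.

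The 9 genes and all gene lists were chosen with earlier results of these data known. Named genes were the 9, the 3 highest and 3 lowest of the wider list past the size rule, the relatives and partners with at least 30 UMIs in a class, of which 1 is not reported here, and the genes most like each factor among those with at least 30 UMIs, without gate or state markers and gene models. The receptors were named after their values were seen.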

Additional observations from a re-analysis of the deposited data

Results flagged for a closer look

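Maf was higher in microglia than in blood-derived cells in the cKO-labelled library (log2 0.088) and lower in the flox-labelled library (log2 -0.17). The difference between the libraries was not tested, and both values lie well within 2-fold.

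Runx3 within microglia leaned towards resting in cKO (log2 1.32) and towards activated in flox (log2 -1.19). The difference was not tested, and with a split common to both libraries the flox value was -0.65 with an interval (-1.55 to 0.19) that included 0. It rests on 63 UMIs in cKO and 59 in flox. The level in microglia was 4.23 and 3.24 CPM, against 3.11 and 1.43 CPM in endothelial cells, with overlapping intervals.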

How the results depend on the processing

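The members past the rule between microglia and blood-derived cells, 2 higher and 3 lower, kept those counts under every alternative run. Under these the log2 ratio of Sall1 ranged from 7.51 to 8.60 in cKO and from 6.98 to 7.77 in flox, that of Mef2c from 2.67 to 2.96 and from 2.71 to 3.09, and that of Runx3 from -5.30 to -4.52 and from -6.42 to -4.41. Maf ranged from -0.04 to 0.32 and from -0.30 to 0.12. Between the libraries, 1 member (Runx3) was higher in cKO-labelled microglia with a margin 2 times as wide, and 1 member (Cebpb) was lower in each class at 1.5-fold. With the common state split the count of members higher towards monocytes was 0.

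Counts over all genes moved by over 1.5 times as follows. Thinning to 1000 UMIs gave 479 genes higher and 450 lower in microglia, 358 lower in cKO-labelled microglia, and 27 higher and 310 lower in cKO-labelled blood-derived cells. At 1.5-fold these were 2108, 1124, 1068, 241 and 943, and 278 were higher in cKO-labelled microglia. Genes higher in cKO were 76 in microglia and 71 in blood-derived cells with clusters, 98 and 105 at 10 UMIs, and 19 and 10 at 100 UMIs. With the mean of each cell's CPM, 87 were higher in cKO-labelled microglia. The cause was not tested, save that fewer UMIs or a lower limit change how many genes can pass. No paired analysis was possible because each group is 1 library. Depth limits Sall1 in blood-derived cells and Runx3 in microglia.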
